A study of Mus musculus with 34 samples.

Results

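The genes described here were the posterior members of the *HoxA* and *HoxD* clusters, paralog groups 10 to 13, in mouse limb buds at E11.5. They were taken by name from the table. These were *Hoxa10*, *Hoxa11* and *Hoxa13* on chromosome 6 and *Hoxd10*, *Hoxd11*, *Hoxd12* and *Hoxd13* on chromosome 2, and all 7 were found among the 22040 protein-coding genes of the RNA-seq table. The table held 3 libraries from Hnrnpk WT limb bud cells and 3 from Hnrnpk CKO limb bud cells. In the CKO embryos, both *Hnrnpk* alleles were floxed and a Prrx1-Cre transgene was present (Prrx1-Cre;Hnrnpk fl/fl). The labels describe the WT embryos only as Hnrnpk WT. Prrx1-Cre is driven by a limb enhancer of *Prrx1* and acts in limb mesenchyme, not in the covering ectoderm, blood or vessels, and the RNA was taken from unsorted limb bud cells. Neither the labels nor the methods say how many embryos were pooled per library or whether forelimb and hindlimb buds were mixed. The other 28 of the 34 samples in the series were not analysed here.

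Hox genes encode homeodomain transcription factors and lie in clusters in which the order of the genes follows the order of their expression in time and along the body axis. In the limb, posterior *HoxA* and *HoxD* genes are switched on in turn and are used from the shoulder to the digits. Group 10 genes are needed mainly in the upper segment, group 11 genes in the forearm and lower leg, and group 13 genes in the hand and foot. HOXA13 and HOXD13 also take part in the switch of *HoxD* from its early regulatory domain to the one that serves the digits. hnRNPK, the product of *Hnrnpk*, binds C-rich stretches of RNA and DNA through its KH domains.

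Because hnRNPK binds C-rich stretches, the promoters of the 7 genes were searched for runs of at least 4 C on either strand (CCCC or GGGG). The RefSeq promoter table (GRCm38.p6) gave 250 bases before the start for each of the 7 genes. For *Hoxa10* and *Hoxd11* it listed 2 promoters each. The promoter nearest the start of the principal transcript was used, and runs in the other were not compared. The windows of the group 13 pair and of the group 10 pair are shown, since these are the genes at the opposite ends of the comparison made below. Each is written from 5′ to 3′ on the strand of its gene, with the runs in capitals. The windows are chr6:52260881-52261130 on the minus strand for *Hoxa13*, chr2:74667975-74668224 on the plus strand for *Hoxd13*, chr6:52234940-52235189 on the minus strand for *Hoxa10* and chr2:74691641-74691890 on the plus strand for *Hoxd10*.

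Hoxa13: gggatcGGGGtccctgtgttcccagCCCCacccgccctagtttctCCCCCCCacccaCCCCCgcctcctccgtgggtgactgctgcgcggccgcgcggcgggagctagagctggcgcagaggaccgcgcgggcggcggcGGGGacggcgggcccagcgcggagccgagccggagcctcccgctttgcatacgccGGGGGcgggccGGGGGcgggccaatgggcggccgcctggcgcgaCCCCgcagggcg

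Hoxd13: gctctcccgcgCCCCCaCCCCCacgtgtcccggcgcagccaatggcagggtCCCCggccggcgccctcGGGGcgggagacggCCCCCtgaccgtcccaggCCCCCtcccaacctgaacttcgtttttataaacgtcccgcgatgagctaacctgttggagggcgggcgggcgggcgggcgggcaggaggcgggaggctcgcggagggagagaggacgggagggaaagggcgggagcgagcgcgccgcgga

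Hoxa10: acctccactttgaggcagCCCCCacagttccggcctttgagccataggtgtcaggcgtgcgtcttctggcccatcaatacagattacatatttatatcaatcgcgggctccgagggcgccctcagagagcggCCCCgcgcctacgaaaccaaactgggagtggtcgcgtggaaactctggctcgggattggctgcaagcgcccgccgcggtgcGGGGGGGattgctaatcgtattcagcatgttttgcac

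Hoxd10: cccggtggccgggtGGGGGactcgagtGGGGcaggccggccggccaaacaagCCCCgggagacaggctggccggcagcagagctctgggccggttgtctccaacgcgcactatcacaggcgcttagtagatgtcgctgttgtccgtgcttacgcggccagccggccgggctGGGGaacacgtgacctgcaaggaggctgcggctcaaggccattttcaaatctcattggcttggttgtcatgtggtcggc

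The *Hoxa13* window held 8 such runs and the *Hoxd13* window 6, the most among the 7 genes. The *Hoxa11* window held 5, those of *Hoxd10* and *Hoxd12* held 4 each, and those of *Hoxa10* and *Hoxd11* held 3 each. Runs of this kind were common, being present in 83.1% of all 32851 promoters, with a median of 2 per promoter. As many runs as in *Hoxa13* were found in 6.6% of promoters, and as many as in *Hoxd13* in 16.0%. The group 13 windows were also the richest in G and C, at 80.0% for *Hoxa13* and 74.4% for *Hoxd13*, against 52.0% to 65.6% for the others. The letters TATAAA, searched on both strands, were found in the *Hoxa10* and *Hoxd13* windows and in 12.4% of all promoters. For *Hoxd13* and *Hoxd10*, the RefSeq start lay 85 and 33 bases from the start of the principal transcript in the gene annotation. These matches describe the letters in the windows, and no binding was measured in the data used here.

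Reads on the listed genes ranged from 17143034 to 24627736 per library, and the values of the 7 genes rested on 843 reads (*Hoxa13* in WT replicate 1) to 7098 reads (*Hoxd13* in CKO replicate 3). FPKM are fragments scaled to exon length and to a size factor of each library. Values are given in the order of the replicates, here and below. *Hnrnpk* had 193, 195 and 185 FPKM in the WT libraries and 127, 142 and 135 FPKM in the CKO libraries. It was thus lower in each CKO library (limma, log2 fold change -0.50, SE 0.13, adjusted *p* = 0.334). The limb mesenchyme markers were present in all libraries, with 7 of 8 lower in CKO, a median log2 fold change of -0.16, and sums of 317 to 326 FPKM in WT and 272 to 303 FPKM in CKO. Markers of other cells also differed between libraries. Of the muscle precursor genes tested, 6 of 6 were higher in CKO, as were 9 of 11 ectoderm and ridge genes, 13 of 13 erythroid, 4 of 5 macrophage and 2 of 3 neural and Schwann precursor genes, while 7 of 7 endothelial genes were lower. With replicates 2 and 3 alone, 3 of 7 endothelial genes were lower, 1 of 3 neural and Schwann precursor genes was higher, and 12 of 13 erythroid genes were higher, while the other counts were the same. The summed level of the muscle precursor list was 18.5 to 32.9 FPKM in WT and 31.0 to 39.1 FPKM in CKO, that of ectoderm and ridge 49.4 to 81.6 and 54.4 to 84.4 FPKM, and that of the endothelial list 23.7 to 33.7 and 16.5 to 26.5 FPKM. The macrophage list summed to 12.6 to 20.0 FPKM in WT and 14.3 to 23.9 FPKM in CKO, and the neural and Schwann precursor list to 6.13 to 9.67 and 6.93 to 8.28 FPKM. The erythroid list summed to 38020 to 64260 FPKM in WT and 31040 to 143400 FPKM in CKO, and globin genes took 11.7% to 32.4% of the summed FPKM. None of the genes in these lists was at 0 in all libraries.

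The 7 genes were well expressed in both groups. FPKM is scaled to exon length, so levels can be set side by side between genes. *Hoxd13* had the highest mean level over the 6 libraries, 101.9 FPKM, followed by *Hoxa10* with 56.9, *Hoxa11* with 52.2, *Hoxd10* with 35.4, *Hoxd12* with 30.9, *Hoxa13* with 28.9 and *Hoxd11* with 16.8 FPKM. They thus lay between the 75.7 and the 97.3 percentile of the 12305 genes with a mean of at least 0.5 FPKM. Among neighbours in this order, the ranges over the 6 libraries were separate for 1 pair, *Hoxa11* and *Hoxd10*, and overlapped for the others. *Hoxd13* was above *Hoxa10* in 5 of the 6 libraries, the exception being WT replicate 1. The level of *Hoxd11* was computed over 4212 bases of merged exons, the longest of the 7 genes, against 1816 to 3270 bases for the others. *Hoxa11* shares 800 exonic bases with its antisense gene *Hoxa11os*, and *Hoxd10* and *Hoxd11* share 104 and 455 exonic bases with *Gm28309*. The libraries were stranded, but the counting setting is not given in the sources used here, so the values of these 3 genes are uncertain by the reads they may share.

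**Figure D1:**
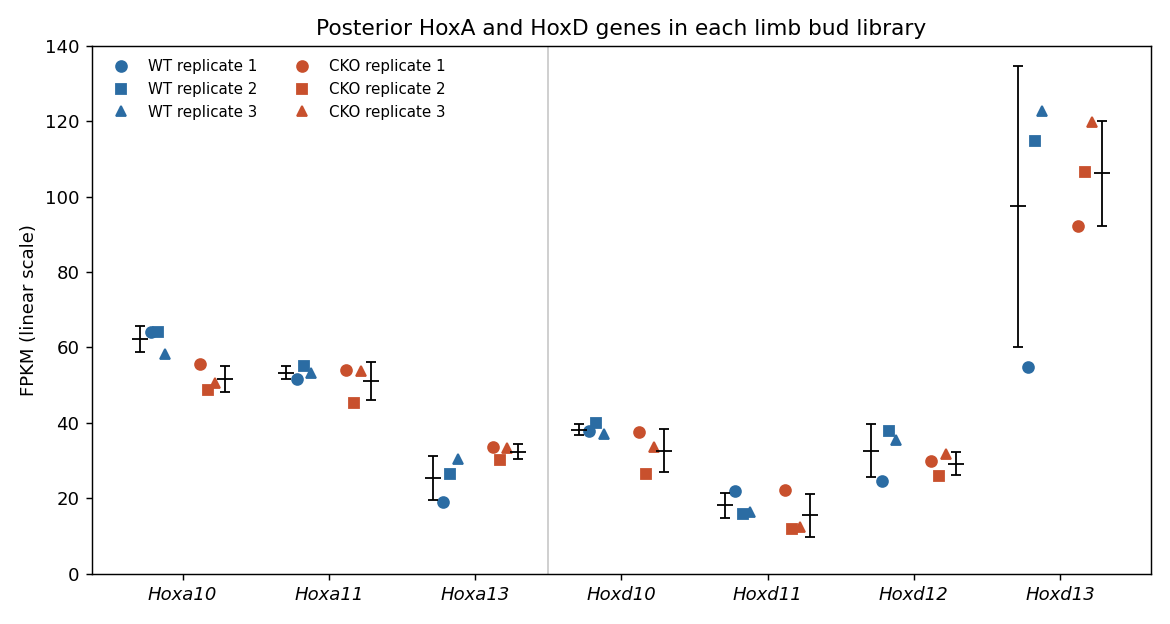
FPKM of the 7 posterior *HoxA* and *HoxD* genes (vertical axis, linear) in the 3 WT (blue) and 3 CKO (orange) libraries, 1 symbol per replicate number, with bars for the mean ± SD of each group (n = 3). The 3 CKO values of *Hoxa10* lie below its WT values, and WT replicate 1 lies far below the other libraries for *Hoxd13*.

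The group 10 genes had negative log2 fold changes in both clusters, and neither passed the test. *Hoxa10* (chr6:52231197-52240854, minus strand) had 64.1, 64.2 and 58.4 FPKM in WT and 55.6, 48.8 and 50.5 FPKM in CKO. All 3 CKO values lay below the lowest WT value. *Hoxa10* was the single member of the 7 whose groups did not overlap, and 8.86% of all genes tested were separated in this direction. Its mean was 62.2 ± 3.34 FPKM in WT and 51.6 ± 3.52 FPKM in CKO (SD, n = 3), with a log2 fold change of -0.27 (SE 0.12, 95% interval -0.54 to 0.0023) that did not pass limma's test over all genes (adjusted *p* = 0.601). In the exact two-sided permutation test its *p* was 0.1, the smallest that 3 against 3 libraries allow. As these are bulk samples, fewer cells expressing a gene and less RNA per cell cannot be told apart. *Hoxd10* (chr2:74691924-74695105, plus strand) had 37.7, 39.9 and 37.1 FPKM in WT and 37.7, 26.4 and 33.7 FPKM in CKO. CKO replicate 1 equalled the WT libraries, and the other CKO libraries were below them. The log2 fold change of *Hoxd10* was -0.24 (SE 0.15, 95% interval -0.59 to 0.11, limma adjusted *p* = 0.726), and it was -0.10 without CKO replicate 2.

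The group 11 genes overlapped between the genotypes. *Hoxa11* (chr6:52242106-52245810, minus strand) had 51.8, 55.1 and 53.2 FPKM in WT and 54.1, 45.4 and 53.7 FPKM in CKO. CKO replicate 2 was the low library, while the other CKO libraries lay within the WT range. The log2 fold change of *Hoxa11* was -0.07 (SE 0.12, 95% interval -0.35 to 0.22, limma adjusted *p* = 0.921), and it became 0.02 without CKO replicate 2. *Hoxd11* (chr2:74679557-74687016, plus strand) had 22.0, 15.9 and 16.3 FPKM in WT and 22.1, 11.7 and 12.5 FPKM in CKO. The replicate 1 libraries of both genotypes were high, and within replicates 2 and 3 the CKO values were the lower ones. Over all 6 libraries the log2 fold change of *Hoxd11* was -0.27 (SE 0.25, 95% interval -0.86 to 0.32, limma adjusted *p* = 0.846). With replicates 2 and 3 alone, it was -0.41 and passed the threshold (limma adjusted *p* = 0.0238), as did 8.00% of all genes in the same direction in that fit.

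Group 12 is present in *HoxD* and absent from *HoxA*. *Hoxd12* (chr2:74675013-74677705, plus strand), which acts in the distal limb with *Hoxd13*, had 24.6, 37.8 and 35.5 FPKM in WT and 29.8, 25.9 and 31.8 FPKM in CKO. The CKO values lay inside the WT range, whose lower end was WT replicate 1. The log2 fold change was -0.14 (SE 0.18, 95% interval -0.56 to 0.28, limma adjusted *p* = 0.884).

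The group 13 genes had positive differences, the opposite sign to groups 10 to 12, without passing the test. *Hoxa13* (chr6:52257694-52260880, minus strand) had 18.9, 26.6 and 30.5 FPKM in WT and 33.6, 30.2 and 33.4 FPKM in CKO. The groups overlapped by a narrow margin, since CKO replicate 2 lay just under WT replicate 3. Its log2 fold change was 0.38 (SE 0.18, 95% interval -0.04 to 0.80, limma adjusted *p* = 0.642), and it was 0.18 without WT replicate 1. *Hoxd13* (chr2:74668310-74671599, plus strand) had 54.7, 115 and 123 FPKM in WT and 92.1, 107 and 120 FPKM in CKO. The low value of WT replicate 1 set the sign of the *Hoxd13* difference, which was 0.20 on the log2 scale with all libraries (SE 0.30, 95% interval -0.50 to 0.90, limma adjusted *p* = 0.904) and -0.17 without that library. WT replicate 1 was also the lowest of the 6 libraries for *Hoxa13* and for *Hoxd12*. Of the marker lists given above, it was the lowest for muscle, ectoderm, macrophage, and neural and Schwann precursor genes, and the highest for endothelial genes. The part of these cell types in the *Hoxd13* difference was not tested.

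Counted together, none of the 7 genes passed limma's adjusted threshold of 0.05 in either direction, where 0.00813% of all genes tested passed as lower and 0.0569% as higher. None passed at an unadjusted *p* under 0.05, against 5.46% of all genes as lower and 2.84% as higher. None reached a 2-fold change with an unadjusted *p* under 0.05, which 0.666% of all genes did, and the largest log2 fold change was the 0.38 of *Hoxa13*. Below 0 were 5 of the 7 log2 fold changes, as were 49.1% of those of all genes, and the median of the 7 was -0.14 against 0.0048 for all genes. With the replicate number as a block, 2 of the 7 (*Hoxa10* and *Hoxd11*) passed an unadjusted *p* under 0.05 as lower, against 10.2% of all genes, and 1 (*Hoxa13*) as higher, against 8.14%. No member passed after adjustment in that fit (adjusted *p* = 0.213 for *Hoxa10*, 0.232 for *Hoxd11* and 0.159 for *Hoxa13*, limma), where 1.68% of all genes passed as lower and 1.13% as higher. With replicates 2 and 3 alone, 6 of the 7 were below 0, as were 49.0% of all genes. At an unadjusted *p* under 0.05, 4 of them passed as lower (*Hoxa10*, *Hoxd10*, *Hoxd11* and *Hoxd12*) and none as higher, against 14.5% of all genes in each direction. After adjustment *Hoxd11* alone passed in that fit, and none as higher, where 7.05% of all genes did.

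The libraries with the same number were then compared. Correlations between the libraries, given with the processing, matched the replicate 1 libraries to each other but did not tell numbers 2 and 3 apart. *Hoxa10* was lower in CKO in all 3 numbered pairs, by log2 differences of -0.21, -0.40 and -0.21, and *Hoxd10* was lower by -0.0024, -0.60 and -0.14. *Hoxa13* was higher in all 3, by 0.83, 0.18 and 0.13. These were 2 and 1 of the 7 genes, against 21.3% and 18.2% of all genes tested with the same sign in all 3 pairs as lower and as higher. The shared sign of *Hoxa13* rests on the numbering, as CKO replicate 2 (30.2 FPKM) lay under WT replicate 3 (30.5 FPKM). *Hoxd13* was higher in pair 1 by 0.75 and lower in pairs 2 and 3, by -0.11 and -0.04. The median of the 7 genes was 0.06 in pair 1, -0.40 in pair 2 and -0.14 in pair 3. In pairs 2 and 3, 6 and 5 of the 7 genes were lower in CKO, against 2 in pair 1, so the pairs did not share one direction for the genes as a group.

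The differences were then set in the order of the genes along each cluster. In *HoxA*, the log2 fold change was -0.59 for *Hoxa7* and -0.65 for *Hoxa9*, -0.27 for *Hoxa10*, -0.07 for *Hoxa11* and 0.38 for *Hoxa13*. In *HoxD*, it was -0.76 for *Hoxd8* and -0.55 for *Hoxd9*, -0.24 for *Hoxd10*, -0.27 for *Hoxd11*, -0.14 for *Hoxd12* and 0.20 for *Hoxd13*. In both clusters, the last genes before group 10 thus had lower values than any posterior gene, and group 13 had the highest. With replicates 2 and 3 alone, the corresponding values from group 10 onward were -0.30, -0.13 and 0.16 in *HoxA* and -0.37, -0.41, -0.35 and -0.07 in *HoxD*. The last gene was still the highest of each cluster's posterior genes in that fit, although *Hoxd13* was then below 0. Of the 13 genes of groups 1 to 9, 11 could be tested, 10 were lower in CKO, against 49.1% of all genes, and the median was -0.46. With the replicate block, 4 of these 11 (*Hoxa7*, *Hoxa9*, *Hoxd8* and *Hoxd9*) passed as lower (limma adjusted *p* = 0.031, 0.0094, 0.0050 and 0.028). None of the 7 posterior genes did, and 1.68% of all genes passed in this direction. Without the block, no gene of either set passed after adjustment. The difference between the 2 sets was not tested.

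**Figure D2:**
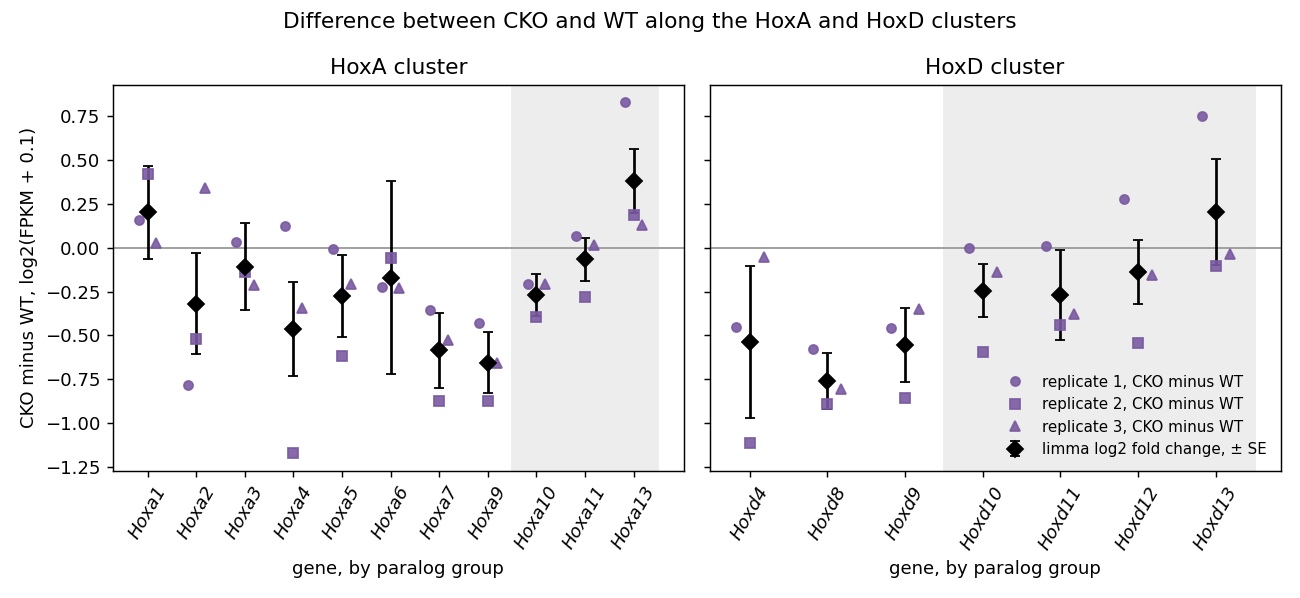
CKO minus WT difference on the log2(FPKM + 0.1) scale (vertical axis) for the tested genes of *HoxA* (left) and *HoxD* (right), in the order of the paralog groups, with limma's estimate ± SE (black) and the difference within each numbered pair (purple). The shaded posterior genes run from -0.27 (*Hoxa10*) to 0.38 (*Hoxa13*) and from -0.27 (*Hoxd11*) to 0.20 (*Hoxd13*).

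A ratio between genes of the same library does not depend on how the libraries were scaled. The mean log2 level of *Hoxa13* and *Hoxd13* minus that of *Hoxa10*, *Hoxa11*, *Hoxd10* and *Hoxd11* was -0.34, 0.51 and 0.73 in WT and 0.48, 0.98 and 0.95 in CKO. The groups overlapped, since CKO replicate 1 lay under WT replicates 2 and 3. Within each numbered pair, CKO was the higher library, by 0.82, 0.47 and 0.22. The means differed by 0.50 on the log2 scale, by 0.18 without WT replicate 1 and by 0.34 in replicates 2 and 3, and no test was made of this score.

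Taken within *HoxA*, the difference between *Hoxa13* and the mean of *Hoxa10* and *Hoxa11* was -1.60, -1.16 and -0.87 in WT and -0.70, -0.64 and -0.64 in CKO. All 3 CKO libraries were above the WT libraries, and they lay much closer to each other (SD 0.04) than the WT libraries did (SD 0.37). Each SD rests on 3 libraries, and the difference in spread was not tested. The means differed by 0.55, and by 0.35 without WT replicate 1. No test was made of this difference, and no share over other genes was computed for it. Expressed as shares of the summed FPKM of the 3 *HoxA* genes, *Hoxa13* made up 14.0%, 18.2% and 21.5% in WT and 23.5%, 24.3% and 24.3% in CKO. *Hoxa10* made up 47.6%, 44.0% and 41.1% in WT and 38.8%, 39.2% and 36.7% in CKO. The shares of *Hoxa13* were therefore higher and those of *Hoxa10* lower in each CKO library, while *Hoxa11* stayed between 36.5% and 39.0% in all 6. The summed level of these 3 genes overlapped, at 135 to 146 FPKM in WT and 124 to 143 FPKM in CKO.

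Within *HoxD*, the replicate 1 libraries stood apart from the others. *Hoxd13* minus the mean of *Hoxd10* and *Hoxd11* was 0.92, 2.18 and 2.32 in WT and 1.67, 2.59 and 2.54 in CKO on the log2 scale. CKO was higher in each numbered pair, by 0.75, 0.41 and 0.22. The means differed by 0.46, and by 0.02 without WT replicate 1, and the replicate 1 libraries of both genotypes were lower than the other 4. In FPKM, *Hoxd13* was 2.49, 7.20 and 7.54 times *Hoxd11* in WT and 4.16, 9.08 and 9.59 times *Hoxd11* in CKO. *Hoxd12* made up 17.7%, 18.1% and 16.8% of the summed FPKM of *Hoxd10* to *Hoxd13* in WT and 16.4%, 15.2% and 16.1% in CKO, which was lower in each CKO library. The summed FPKM of the 4 *HoxD* genes was 139, 209 and 212 in WT and 182, 171 and 198 in CKO and overlapped. Of the 8 ratios of a group 13 gene to a group 10 or 11 gene, 7 were higher in CKO in all 3 pairs and 3 were higher without overlap, with differences of 0.27 to 0.65 on the log2 scale. The smallest, that of *Hoxd13* to *Hoxa11*, was 0.06 over pairs 2 and 3. Without WT replicate 1, it became -0.08, that of *Hoxd13* to *Hoxd11* became -0.05, and the 4 ratios of *Hoxa13* lay between 0.27 and 0.44. These 8 ratios share genes and libraries and are given as a description, with no share over other pairs of genes to set them against.

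**Figure D3:**
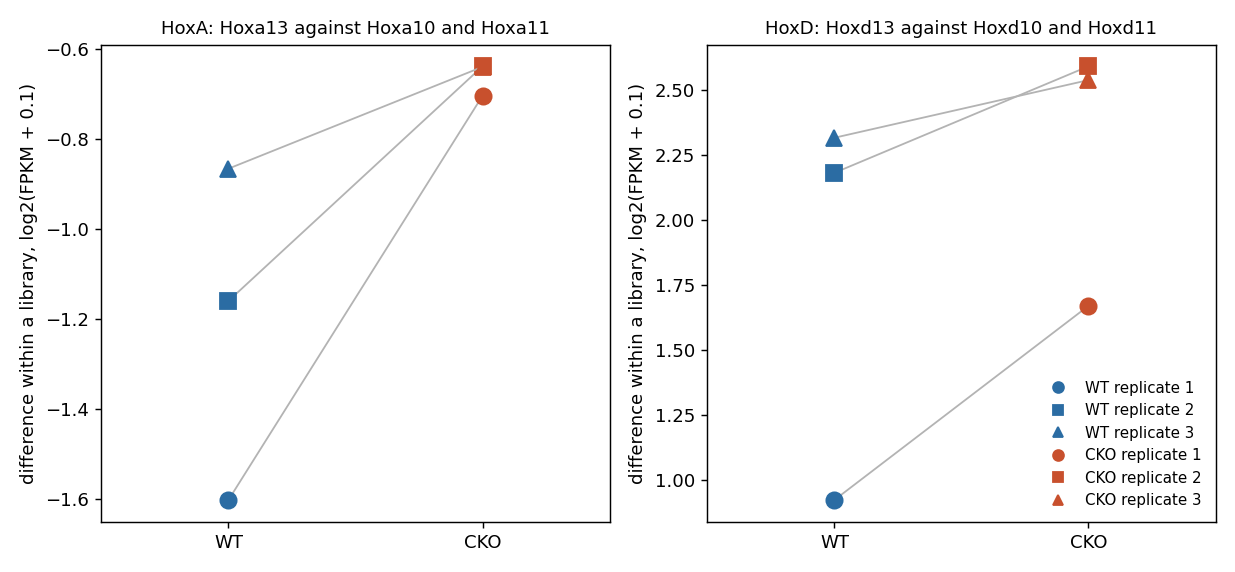
Log2 level of the group 13 gene minus the mean log2 level of the group 10 and 11 genes of the same cluster, within each library (vertical axis, with its own range in each panel), for *HoxA* (left) and *HoxD* (right). Grey lines join libraries with the same replicate number, and the CKO end is the higher one in all 6 lines, by 0.22 to 0.90.

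Paralogs of the same group were compared between the clusters. *Hoxd10* had 0.59, 0.62 and 0.63 times the FPKM of *Hoxa10* in WT and 0.68, 0.54 and 0.67 times in CKO, so the groups overlapped. *Hoxd11* had 0.43, 0.29 and 0.31 times the FPKM of *Hoxa11* in WT and 0.41, 0.26 and 0.23 times in CKO. *Hoxd13* had 2.89, 4.32 and 4.03 times the FPKM of *Hoxa13* in WT and 2.74, 3.54 and 3.59 times in CKO. For groups 11 and 13, the *HoxD* gene was the lower one relative to its *HoxA* paralog in CKO within each of the 3 pairs, with group ranges that overlapped. Summed over both clusters, group 10 gave 95.5 to 104 FPKM in WT and 75.1 to 93.2 FPKM in CKO, and group 13 gave 73.7 to 153 FPKM in WT and 126 to 153 FPKM in CKO.

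The 7 genes did not share one pattern over the 6 libraries. Likeness was measured as the root mean square difference of the log2 values after each gene was centred on its mean, so that a smaller value is a closer pattern. Among the 7, *Hoxa10* and *Hoxd10* were the closest pair (0.11) and *Hoxd11* and *Hoxd13* the farthest (0.69). *Hoxa13* was closest to *Hoxd13* (0.24), *Hoxa11* to *Hoxd10* (0.12) and *Hoxd12* to *Hoxa11* (0.18). Other genes were closer to each member than its nearest posterior Hox gene, which ranked from 234 to 2084 among all genes. The nearest genes outside the set were *Tfap2b* and *Ajap1* for *Hoxa13*, *Ngfr* and *Gm9747* for *Hoxd13*, *Hps1* and *Nudcd3* for *Hoxa10*, *Doc2a* and *Stk11* for *Hoxa11*, *Xrcc3* and *Selenoo* for *Hoxd10*, *Dvl3* and *Maml3* for *Hoxd11*, and *Mfsd3* and *Fbxo17* for *Hoxd12*. With 6 libraries and 12305 genes such matches are a description.

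Because the sequences of the 7 genes are related, their annotated transcripts were compared for reads that could belong to more than one gene. Over the 21 pairs, the longest identical run on the same strand was 10 to 20 bases. One of the 20-base runs, printed as deposited in the annotation's transcripts (GENCODE vM21), was shared by *Hoxd11* and *Hoxd12* and codes for part of the homeodomain's recognition helix, the most conserved stretch of these proteins.

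Hoxd11 and Hoxd12: GTCAAAATCTGGTTCCAGAA

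The posterior genes of the other clusters and the neighbours of *HoxA* and *HoxD* were examined next. Of 5 paralogs of groups 10 to 13 in *HoxB* and *HoxC*, 3 had enough expression to be tested. All 3 were higher in CKO, with a median log2 fold change of 0.28. *Hoxc12*, which fell below the filter, was lower in CKO in all 3 numbered pairs, by -0.50, -0.61 and -0.54. *Hoxc10*, a hindlimb gene in the limb, had 18.5, 18.1 and 17.8 FPKM in WT and 22.8, 20.1 and 23.4 FPKM in CKO, higher in each CKO library than in any WT library (log2 fold change 0.28, limma adjusted *p* = 0.561). *Hoxc13* lay near the filter, at 0.23, 0.41 and 0.60 FPKM in WT and 0.61, 0.68 and 0.61 FPKM in CKO. Its log2 fold change was 0.59 (limma adjusted *p* = 0.681). With a mean of 0.41 FPKM in WT and 0.63 FPKM in CKO, it passed the filter of 0.5 FPKM through its CKO values. Its direction was therefore not free of the filter. The groups of both genes were separate, and 5.63% of all genes were separated in that direction. *Evx2*, the neighbour of *Hoxd13* outside the cluster, had 1.87, 5.41 and 6.53 FPKM in WT and 5.81, 4.90 and 5.73 FPKM in CKO. As for *Hoxd13*, WT replicate 1 was the low library, and the others lay between 4.90 and 6.53 FPKM (log2 fold change 0.42, limma adjusted *p* = 0.855). With replicates 2 and 3 alone, the value of *Evx2* was -0.16. All 6 neighbours had positive log2 fold changes with all libraries, 5 of 6 did with replicates 2 and 3, the median with all libraries was 0.21, and none passed the test. *Lnpk*, on the far side of *Evx2*, had a log2 fold change of 0.26 (limma adjusted *p* = 0.689).

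Markers that separate forelimb from hindlimb were also compared. *Tbx5*, which marks the forelimb, had 20.3, 19.1 and 19.2 FPKM in WT and 15.3, 7.30 and 9.58 FPKM in CKO. The 3 CKO values lay below the WT values, and the log2 fold change of -0.93 passed with the replicate block (limma adjusted *p* = 0.0073) and did not pass without it (limma adjusted *p* = 0.358). The 5 hindlimb genes, which include *Hoxc10*, summed to 93.5 to 100.5 FPKM in WT and 102.1 to 118 FPKM in CKO. Of these, 4 had positive log2 fold changes, with a median of 0.25 over the 5, and none passed limma's adjusted threshold with or without the block. The largest were 0.30 for *Isl1* and 0.28 for *Hoxc10*. *Tbx4*, the hindlimb counterpart of *Tbx5*, had 27.6, 24.6 and 25.9 FPKM in WT and 31.3, 22.5 and 24.8 FPKM in CKO, with a log2 fold change of -0.0033. *Hoxc10* and *Pitx1* were higher without overlap, against the 5.63% of all genes given above, and *Tbx4* and *Pitx1* were chosen for mention after their values were seen. The share of forelimb and hindlimb tissue in the libraries is not given in the sources used here, and its part in the differences of the posterior *HoxA* and *HoxD* genes was not tested.

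Partners and limb genes tied to the posterior Hox proteins were compared next. The TALE homeodomain proteins (Meis, Pbx and Pknox) bind DNA beside Hox proteins. Of their 9 genes, 8 had negative log2 fold changes, with a median of -0.11, and none passed the test with or without the replicate block. The largest differences were -0.29 for *Meis2* and -0.26 for *Meis3* (limma adjusted *p* = 0.846 and 0.856). *Meis2*, an upper limb gene, had 8.58 FPKM in CKO replicate 1 and a higher level in WT replicate 1, against 5.16 to 6.28 FPKM in the other 4 libraries, so it was high in the replicate 1 libraries in which *Hoxd13* was low. Of 20 limb genes tied to posterior Hox function, 11 were lower in CKO and 9 higher, with a median of -0.12. One of the 20, *Aldh1a2*, which encodes an enzyme of retinoic acid synthesis, passed the test with the replicate block (log2 fold change -0.72, limma adjusted *p* = 0.0050), where it was lower in CKO in all 3 pairs. Without the block it did not pass (limma adjusted *p* = 0.739). *Shh*, the signal of the posterior limb margin, had 3.68, 2.96 and 3.06 FPKM in WT and 3.78, 2.37 and 3.96 FPKM in CKO, which overlapped, and it was chosen for mention after its values were seen.

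The direction of the differences was held against the processing. Of the 7 genes, *Hoxa10*, *Hoxa13*, *Hoxd10*, *Hoxd11* and *Hoxd12* kept their sign in all 20 alternative settings. Some of these settings could not change a sign. On log2(FPKM + 0.1), another filter, another variance model or the replicate block leaves the fold change itself as reported. *Hoxa10* ranged from -0.47 to -0.23 on the log2 scale and *Hoxa13* from 0.16 to 0.53. *Hoxd10* ranged from -0.44 to -0.10, *Hoxd11* from -0.56 to -0.10 and *Hoxd12* from -0.35 to -0.02. Single libraries moved these 3 genes, as *Hoxd11* was -0.56 without CKO replicate 1 and -0.10 without CKO replicate 2, and *Hoxd12* was -0.33 without WT replicate 1 and -0.02 without WT replicate 2. *Hoxd13* ranged from -0.17 to 0.41 and *Hoxa11* from -0.27 to 0.02. Scaling each library to a fixed sum of FPKM (TPM) gave -0.47 for *Hoxa10*, 0.18 for *Hoxa13* and 0.004 for *Hoxd13*. It moved the median of all genes to -0.19. Relative to that median the values were -0.28 for *Hoxa10*, 0.37 for *Hoxa13* and 0.20 for *Hoxd13*. Scaling shifts all genes of a library by nearly the same amount, so these relative values stay near the reported ones and do not test the scaling.

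**Figure D4:**
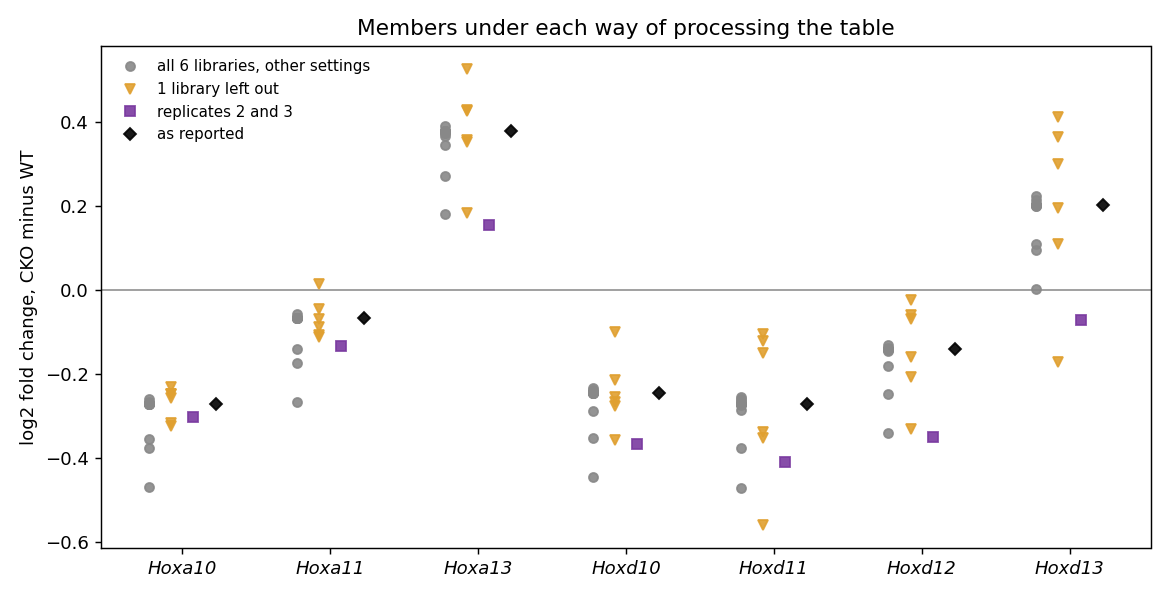
Log2 fold change, CKO minus WT (vertical axis), of each of the 7 genes as reported (black), under other settings with all 6 libraries (grey), with 1 library left out (yellow) and with replicates 2 and 3 alone (purple). *Hoxa10* stays below 0 and *Hoxa13* above 0 at each point, while *Hoxd13* crosses 0, reaching -0.17.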

How the data were processed

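RNA-seq of E11.5 limb bud cells was used for 3 WT and 3 CKO biological replicates. As it is not stated whether each came from separate embryos, *p* values measure the spread between these libraries. The authors used a stranded mRNA kit and deposited FPKM per gene. The submitters' processing notes name cutadapt 2.5, HISAT2 2.1.0, featureCounts 1.6.3 and mm10 for the series, and the counting settings are not given in the sources used here. FPKM times the merged exon length (GENCODE vM21, GRCm38) gave whole reads, within 0.1, in all libraries for 92.6% of genes and for all 7 members, which gave the depth.

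The 12305 genes whose mean FPKM reached 0.5 were compared on log2(FPKM + 0.1) with limma 3.58.1 in R 4.3.3 (trend, Benjamini-Hochberg over all genes), so fold changes are on that scale. Single values were compared by the exact permutation test. Deviations from group means correlated across genes at 0.64, 0.44 and 0.27 for libraries numbered 1, 2 and 3. As each was above 0.1, the numbers were treated as pairs. WT replicate 1 and CKO replicate 1 correlated negatively with all other numbers (-0.60 to -0.37). As deviations sum to 0 within a group, the positive value between these libraries forces negative ones, on balance, with the others. WT replicate 2 with CKO replicate 3 gave 0.49 and WT replicate 3 with CKO replicate 2 gave 0.31. The values thus match the replicate 1 libraries to each other and do not tell numbers 2 and 3 from each other. The labels do not say what a number stands for. The fit was tested on simulated data in which libraries of the same number shared a deviation by design. That design favoured the block, so the recovery with it does not show whether the numbers are pairs in the real data. Without the block it recovered 51 of 108 genes changed by 1 on the log2 scale and 80 of 92 changed by 2, with 0 false calls. With the block it recovered 79 of 108 and 90 of 92, with 8 false calls. These changes were larger than those of the 7 genes, so the simulation does not show how often differences of that size would pass. Alternatives changed the pseudocount, filter, scaling, variance model, block, input (voom on recovered reads) and libraries. The members and lists were chosen with earlier results of these data known. Named are the 7 genes, list members past the adjusted threshold with or without the block, otherwise the 2 of largest change in a list, the 2 genes nearest in pattern to each member, and genes said to be chosen after their values were seen. After the data were seen, ratios without each library and list counts in replicates 2 and 3 were added. Sequences are from RefSeq. Figures were drawn with matplotlib 3.10.9.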

Additional observations from a re-analysis of the deposited data

How the results depend on the processing

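With limma's adjusted threshold, 0 members passed as lower and 0 as higher in the reported fit and in the alternatives, with 1 exception. *Hoxd11* (-0.41) passed as lower with replicates 2 and 3 alone, as did 8.00% of all genes. At an unadjusted *p* under 0.05, the reported counts were 0, and 1022 of all 12305 genes passed in either direction. The members lower in CKO numbered 1 without a filter, with quantile normalization, with an ordinary linear model and with voom on recovered reads. In these settings 1705 of 22040, 1026 of 12305, 1108 of 12305 and 949 of 11026 genes passed in either direction. With replicates 2 and 3, 4 members were lower, and 3569 of 12305 genes passed in either direction. With the replicate block, which pairs the libraries by number, 2 members were lower and 1 higher. The same counts, 2 and 1, were given by voom with the block. Of all genes, 2263 of 12305 passed in either direction with the block and 2233 of 11026 with voom and the block. Leaving out 1 library at a time gave 0 to 3 members lower, with 3 without CKO replicate 1. It gave 0 to 1 higher, with 1 without WT replicate 3. Of all 12305 genes, 2416 passed in either direction without CKO replicate 1 and 513 without WT replicate 3. *Hoxd13* reversed to -0.17 without WT replicate 1 and to -0.071 with replicates 2 and 3, and *Hoxa11* to 0.016 without CKO replicate 2. With 1 library left out at a time, *Hoxd13* ranged from -0.17 to 0.41 and *Hoxa11* from -0.11 to 0.016. The difference of group 13 minus groups 10 and 11 stayed positive, between 0.18 and 0.72 with 1 library left out. The cause of these changes was not tested. With 3 libraries per group the intervals of the 7 genes are wide, and each value rests on at least 843 reads.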
